A study of Homo sapiens with 12 samples.

Results

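NPTX1 (neuronal pentraxin 1) and 3 relatives, NPTX2, NPTXR and PTX3, were followed in U-87MG, an established cell line from a human glioblastoma, after 24 h with a ligand of the aryl hydrocarbon receptor (AHR). All 4 genes had a row of their own in the table of 13530 genes, 1 row each, and none was absent. NPTX1 was chosen by its measured FICZ and DMSO signals, high with FICZ and dim with DMSO, and the other genes were taken as members of the same protein family. NPTXR and PTX3 passed the filter on dim signals, NPTX1 passed it through treated arrays alone, and NPTX2 did not pass.

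The groups were 4 arrays each of cells given 100 nM FICZ (6-formylindolo[3,2-b]carbazole, a tryptophan photoproduct and potent AHR ligand), 50 µM kynurenic acid (KynA, a tryptophan metabolite) or the solvent DMSO, at no more than 0.2% of the medium. All cells, those with DMSO included, stably carried a control shRNA (shCtrl) brought in by lentivirus. Every array thus comes from a single cell line, and the labels call the 4 samples of a group biological replicates without saying whether they were separate cultures or days, so a p-value here measures only how far these samples spread, which may be technical. RNA of whole cultures was measured, so that fewer expressing cells and less RNA per cell cannot be told apart.

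Pentraxins are secreted or membrane-bound proteins that share a domain at their carboxyl end and assemble into multimers. The long neuronal pentraxins NPTX1 and NPTX2 are released by neurons and, with their membrane-anchored relative NPTXR, gather AMPA-type glutamate receptors at excitatory synapses. PTX3 is the long pentraxin of innate immunity, made by many cell types after interleukin-1 or TNF, and it binds complement and matrix proteins. AHR is a transcription factor that moves to the nucleus when a ligand binds it.

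Labels and arrays were checked first. The AHR targets TIPARP, CYP1B1 and AHRR were higher with FICZ in 3 of 3 cases (limma adjusted p = 0.000659, 0.00629 and 0.00565; 0.601% of the 10807 genes tested rose). CYP1A1, the other AHR target of that list, had no row with a symbol of its own. Of 9 astroglial and mesenchymal markers of the line, 8 had a row and passed the filter, among them vimentin (VIM), tenascin C (TNC) and GFAP. S100B had no row with a symbol of its own. Of all 13530 genes 10807 passed the filter, so passing it does not identify the line. With DMSO, VIM averaged 13.1 and TNC 11.8, while GFAP at 8.03 lay below the array medians. Array medians lay between 8.30 and 8.33 on the log2 scale. FICZ 4 stood apart, with a mean correlation to the other arrays of 0.947, where the other 11 arrays had 0.960 to 0.969. Values without it are given for each of the 4 genes.

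NPTX1, which codes for the secreted pentraxin that binds AMPA receptors, had log2 signals of 9.26, 8.68, 8.92 and 8.88 on the arrays FICZ 1 to 4. KynA 1 to 4 had 7.79, 6.88, 8.05 and 7.73, and DMSO 1 to 4 had 6.56, 6.27, 7.03 and 7.02. All 4 FICZ arrays were above every KynA array, and 3 of 4 KynA arrays were above every DMSO array, while KynA 2 lay among the DMSO arrays. The order of the means was FICZ at 8.93 ± 0.240, KynA at 7.61 ± 0.505 and DMSO at 6.72 ± 0.374 (SD, n = 4 each). The filter values of the arrays, their 25th percentiles, ran from 7.69 to 7.74. NPTX1 exceeded them on 4 of 4 FICZ arrays, on 3 of 4 KynA arrays and on 0 of 4 DMSO arrays.

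**Figure D1:**
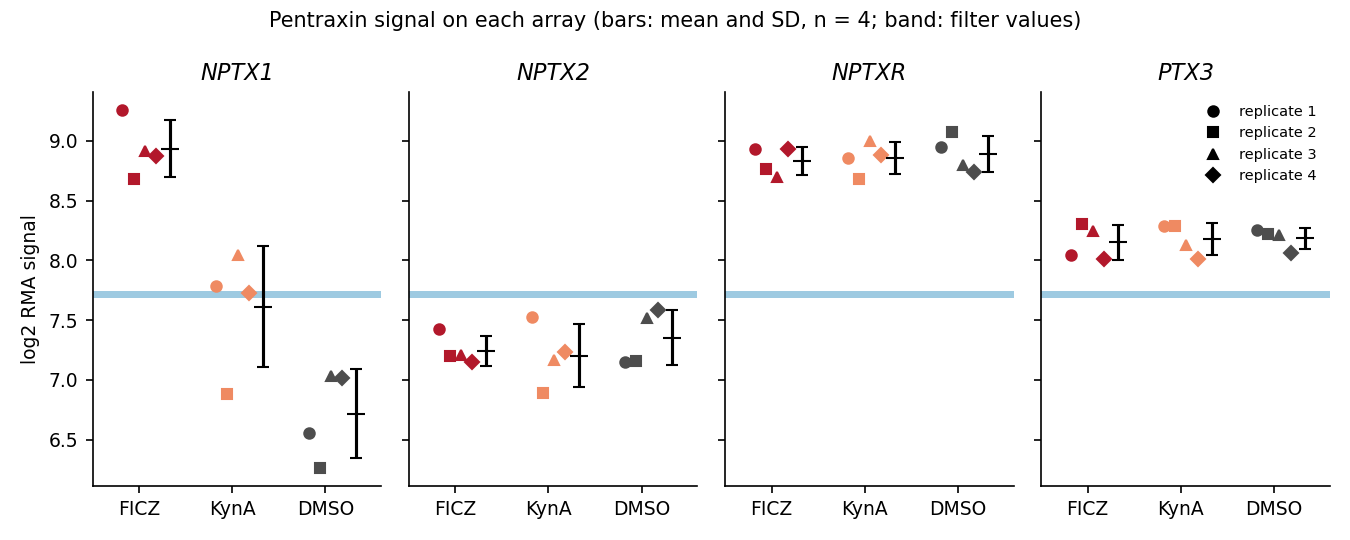
Log2 RMA signal of each pentraxin gene (y axis) on every array of the FICZ, KynA and DMSO groups (x axis). Points are arrays with 1 symbol per replicate number, bars are the mean and SD of 4 arrays, and the blue band spans the filter values of 7.69 to 7.74. The means of NPTX1 stand in 3 steps, with the point of KynA 2 among the DMSO points. The points of NPTX2, NPTXR and PTX3 overlap between all groups.

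NPTX1 was 2.22 ± 0.227 higher on the log2 scale with FICZ than with DMSO (SE, n = 4 each), a ratio of 4.65. This difference chose the gene and is given as a description with no test. The gap between the lowest FICZ array and the highest DMSO array was 1.65; of the tested genes, 7.86% had FICZ and DMSO arrays that did not overlap (2.94% higher and 4.91% lower with FICZ). Without FICZ 4 the difference was 2.23, and over the 12 fits that left out 1 array it ran from 2.06 to 2.32. The DMSO level was among the dimmest of the table, where 0.347% of genes had a lower DMSO mean.

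With KynA, NPTX1 averaged 0.89 ± 0.227 above DMSO (SE, n = 4 each; 95% interval 0.41 to 1.38), which did not pass over all genes (limma adjusted p = 0.719; unadjusted p = 0.00148). All 4 KynA arrays were above the DMSO mean, and the 2-sided exact permutation p of 4 against 4 arrays was 0.0857. Only 0.00925% of the genes tested passed in this comparison, and the groups of 2.41% did not overlap (1.13% higher and 1.28% lower with KynA). The DMSO arrays used here are those on which NPTX1 was picked as dim. Array KynA 2 moved the value most: without it the difference was 1.14 (limma adjusted p = 0.081).

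FICZ exceeded KynA by 1.32 for NPTX1 (95% interval 0.84 to 1.81; 2.50-fold), and the 2 groups did not overlap. The difference did not pass over all genes (limma adjusted p = 0.117), and it uses the FICZ arrays on which the gene was picked. Of the 10807 genes tested, 4.18% had non-overlapping groups (1.4% higher and 2.79% lower with FICZ) and 0.00925% passed. The 2 ligands were given at unequal doses, so the difference is between these treatments and not between matched amounts. Without KynA 2 the difference was 1.08 and without FICZ 4 it was 1.34 (limma adjusted p = 0.0872 and 0.26).

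**Figure D2:**
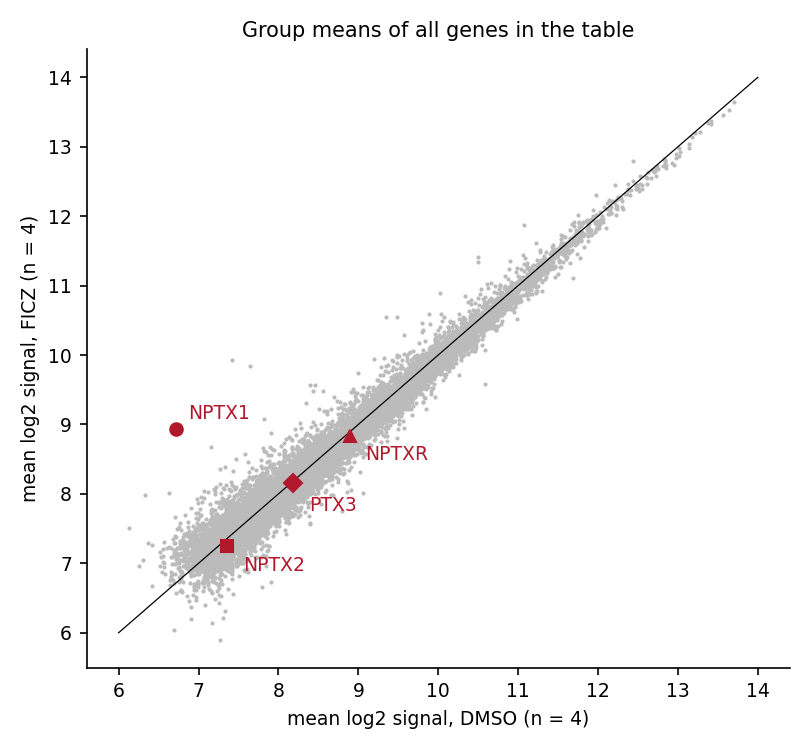
Mean log2 signal with FICZ (y axis) against DMSO (x axis), 4 arrays each, for the 13530 genes of the table (grey) and the 4 pentraxin genes (red). The line marks equal means. NPTX1 lies far above the line at its dim end, with means of 8.93 for FICZ and 6.72 for DMSO, and NPTX2, NPTXR and PTX3 lie on it.

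Dim rows were compared with each other, since the lowest row mean in the table was 6.50 and the rule that set it is not known. Besides NPTX1, 234 genes had a DMSO mean within 0.25 of it. Their median FICZ minus DMSO difference was 0.29 and their median KynA minus DMSO difference was 0.20. Both were above the medians of −0.03 and −0.01 over all genes tested, which are genes that passed the filter. The 234 genes were picked by a low DMSO mean, a choice that can by itself lean their differences from DMSO upward. The part of that choice in these medians was not tested. Of these 234 genes 0 passed the filter, and their highest FICZ mean was 8.01. The largest FICZ minus DMSO difference among them was 1.38, in the antisense gene ZNF295-AS1, and it was the 1 gene of the 234 with a difference over 1. The part of this shift of dim rows in the NPTX1 differences was not tested.

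NPTX2, the activity-regulated pentraxin also called NARP, stayed below the filter on all 12 arrays. Its log2 signals were 7.42, 7.20, 7.21 and 7.15 with FICZ, 7.53, 6.89, 7.17 and 7.23 with KynA, and 7.15, 7.16, 7.52 and 7.59 with DMSO. The arrays of the 3 groups overlapped. In a fit without the filter it differed by −0.11 between FICZ and DMSO (95% interval −0.41 to 0.19; limma adjusted p = 0.771) and by −0.15 between KynA and DMSO (−0.45 to 0.15; 0.999). FICZ minus KynA was 0.04 (−0.26 to 0.34; limma adjusted p = 0.958), and without FICZ 4 the FICZ minus DMSO difference was −0.08.

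NPTXR, the membrane-anchored receptor of the family, was above the filter on every array. Its log2 signals were 8.93, 8.77, 8.70 and 8.93 with FICZ, 8.86, 8.68, 9.0 and 8.88 with KynA, and 8.95, 9.07, 8.80 and 8.74 with DMSO. The groups overlapped throughout. The means were 8.83 ± 0.118, 8.85 ± 0.134 and 8.89 ± 0.150 for FICZ, KynA and DMSO (SD, n = 4 each). FICZ minus DMSO was −0.06 (95% interval −0.27 to 0.15; limma adjusted p = 0.826), KynA minus DMSO was −0.04 (−0.25 to 0.17; 1) and FICZ minus KynA was −0.02 (−0.23 to 0.19; 0.964). For FICZ over DMSO the interval spans ratios of 0.830 to 1.11, and without FICZ 4 the log2 difference was −0.09.

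PTX3, the soluble pattern recognition pentraxin, was likewise above the filter on every array. Its log2 signals were 8.05, 8.31, 8.25 and 8.01 with FICZ, 8.29, 8.28, 8.13 and 8.02 with KynA, and 8.25, 8.22, 8.21 and 8.06 with DMSO. No group stood apart. FICZ minus DMSO was −0.03 (95% interval −0.23 to 0.17; limma adjusted p = 0.909), KynA minus DMSO was −0.0041 (−0.20 to 0.20; 1) and FICZ minus KynA was −0.03 (−0.23 to 0.17; 0.951). The FICZ over DMSO interval spans ratios of 0.851 to 1.12, and without FICZ 4 the log2 difference was 0.01. Of the 2 relatives that passed the filter, NPTXR and PTX3, 0 changed in any comparison by limma. Of all genes tested, 0.851% changed for FICZ against DMSO and 0.00925% in each of the other comparisons. At an unadjusted p under 0.05 there were 0 of the 2 as well. All genes had 14.5% for FICZ against DMSO, 3.39% for KynA against DMSO and 8.34% for FICZ against KynA. Counts over 2 genes are too small to be set against these shares.

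**Figure D3:**
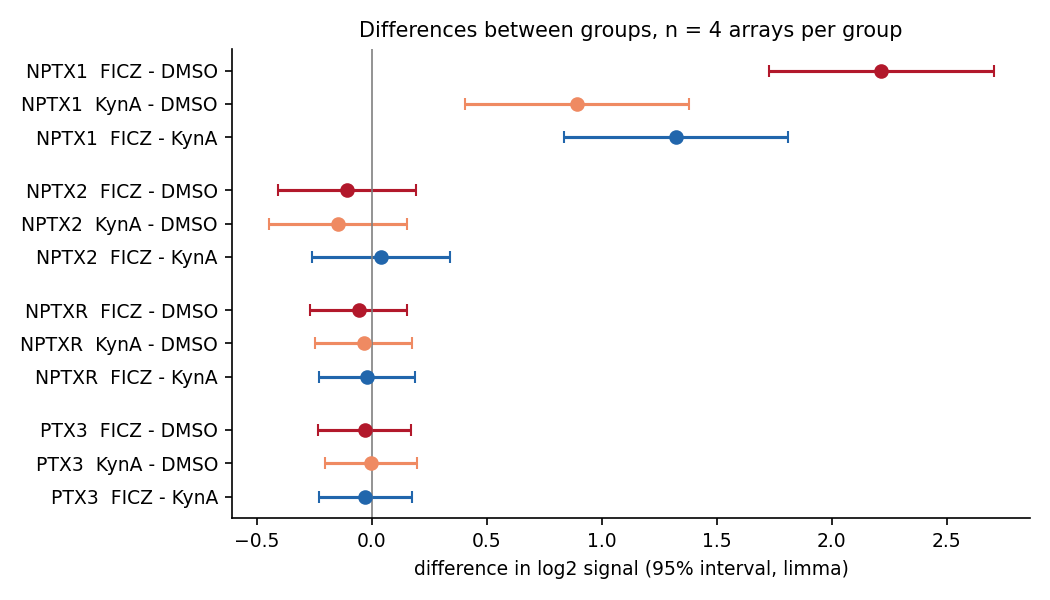
Difference in log2 signal (x axis) for each pentraxin gene and comparison, with the 95% interval from limma and 4 arrays per group. NPTX1 lies at 2.22, 0.89 and 1.32, and the 9 intervals of NPTX2 (fitted without the filter), NPTXR and PTX3 all include 0.

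Promoter letters could be read for NPTX2 and PTX3 from RefSeq (build GRCh38.p14, plus strand), and NPTX1 and NPTXR were not analysed here in that respect. Both are shown because AHR and its partner bind DNA at sites with the core GCGTG, so that a gene can be read for the motif beside its response. The 250 bases before the start of NPTX2 lie at chr7:98617035-98617284 and those of PTX3 at chr3:157436600-157436849. Capitals mark GCGTG or its reverse complement CACGC.
NPTX2: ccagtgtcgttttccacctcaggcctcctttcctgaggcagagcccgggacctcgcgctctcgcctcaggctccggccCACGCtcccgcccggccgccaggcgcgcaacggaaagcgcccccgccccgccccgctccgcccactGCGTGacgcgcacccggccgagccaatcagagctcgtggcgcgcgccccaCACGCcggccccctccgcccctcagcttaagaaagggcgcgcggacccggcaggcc
PTX3: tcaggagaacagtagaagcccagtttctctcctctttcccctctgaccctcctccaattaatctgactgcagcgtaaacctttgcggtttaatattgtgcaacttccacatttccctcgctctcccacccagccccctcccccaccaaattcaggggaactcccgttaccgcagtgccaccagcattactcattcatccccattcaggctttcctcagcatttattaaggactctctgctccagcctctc
The NPTX2 stretch held 3 matches, which began 172, 106 and 56 bases before the start, and the PTX3 stretch held 0. Of 35116 promoter stretches of this length, 32.2% held at least 1 match on either strand and 3.16% held 3 or more. With the 50 bases after the start included, the share with at least 1 was 36.5%. Of the 12124 stretches of tested genes, over the 250 bases before the start, 42.5% held at least 1 match and 4.58% held 3 or more. Matches of the 5 letters on the 2 strands do not overlap here, and a match is a description of letters and no sign of binding. As given above, neither gene passed the test with FICZ or KynA.

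The genes around the pentraxins were looked at in the RefSeq gene order. Of the 24 protein-coding neighbours, 3 on each side of each gene, 19 had a row and 18 were tested. By limma 0 passed in any comparison, where 0.851% of all genes passed for FICZ against DMSO and 0.00925% in each of the other comparisons. At an unadjusted p under 0.05 there was 1 of the 18 in each comparison, where all genes had 14.5% for FICZ against DMSO, 3.39% for KynA against DMSO and 8.34% for FICZ against KynA. Beside NPTX1, the signalling scaffold gene RPTOR differed by 0.02 between FICZ and DMSO, ENDOV by 0.14, CHMP6, a membrane-sorting factor, by 0.16, and SLC26A11 by 0.16. The whole range over the 18 neighbours was −0.24 to 0.16.

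Partners of the neuronal pentraxins were taken as a list of 19 genes for AMPA receptor subunits, auxiliary subunits and scaffolds, of which 14 had a row and 9 passed the filter. With FICZ 0 of the 9 passed by limma and 2 had an unadjusted p under 0.05, where all genes tested had 0.851% and 14.5%. The median difference was −0.01, beside −0.03 over all genes tested. GRIA1 was the single receptor subunit above the filter, with mean log2 signals of 7.98 with FICZ, 7.65 with KynA and 7.85 with DMSO, and GRIA2, GRIA3 and GRIA4 stayed below it. The smallest p-values belonged to NSF, an ATPase of membrane fusion, at −0.44 ± 0.158 (limma adjusted p = 0.217), and PICK1, which binds receptor tails, at −0.41 ± 0.169 (0.286). In a list of 7 further binding, processing and adhesion genes, 3 were tested and 0 changed by limma, with 0 at an unadjusted p under 0.05. These were ADAM17, whose product cleaves NPTXR (0.07 ± 0.0757; adjusted p = 0.726), RCN2, a reticulocalbin bound by NPTX1 in rat (−0.02), and the adhesion gene NPTN (−0.05).

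Among 35 other organisers of excitatory synapses, 20 were tested and 1 rose with FICZ and 0 fell, where 0.601% of all genes tested rose and 0.25% fell. It was THBS1, the matrix glycoprotein thrombospondin 1, at 1.11 ± 0.236 (limma adjusted p = 0.0459). That call was kept in 2 of 12 fits that left out 1 array, without FICZ 2 or KynA 2, and lost in the others (adjusted p up to 0.116, without DMSO 4). The median of the list was −0.02. Among 22 genes that neurons induce with activity or that respond early to stimuli, as NPTX2 does, 14 were tested and 1 rose (0.601% of all genes), PLAT, the tissue plasminogen activator, at 0.40 ± 0.0813 (adjusted p = 0.037). PLAT kept its call in 3 of 12 such fits, without FICZ 3, KynA 2 or DMSO 2 (adjusted p up to 0.116, without DMSO 4). The transcription factor gene EGR2 differed by 0.53 ± 0.141 and did not pass (limma adjusted p = 0.0995).

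Upstream and partner genes of PTX3 were set beside it. Of 14 genes of the interleukin-1 and TNF pathway that induces it, 11 were tested and 1 rose with FICZ, the cytokine IL1B, where 0.601% of all genes tested rose. Its log2 signals were 9.98, 10.44, 9.43 and 9.53 with FICZ, 8.80, 9.09, 8.21 and 8.17 with KynA, and 7.53, 8.24, 7.36 and 7.43 with DMSO, a FICZ minus DMSO difference of 2.20 ± 0.256 (limma adjusted p = 0.000949). All FICZ arrays were above all DMSO arrays for IL1B, whereas PTX3 differed by −0.03. The receptor gene IL1R1 differed by 0.43 ± 0.107 and did not pass (limma adjusted p = 0.0842), and the list's median was 0.05. IL1A, TNF and IRAK4 of this list had no row with a symbol of their own, so IL1B was its only cytokine gene measured. Of 20 PTX3 partners 9 were tested and 1 rose (again beside 0.601% of all genes), the growth factor gene FGF2, at 0.39 ± 0.0739 (limma adjusted p = 0.0276), which PTX3 is known to bind. FGF2 lost its call without FICZ 2 (0.0849), FICZ 4 (0.0751) or any one of DMSO 1 to 4 (0.0503 to 0.0831). The hyaluronan cross-linking partner TNFAIP6 stayed below the filter.

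**Figure D4:**
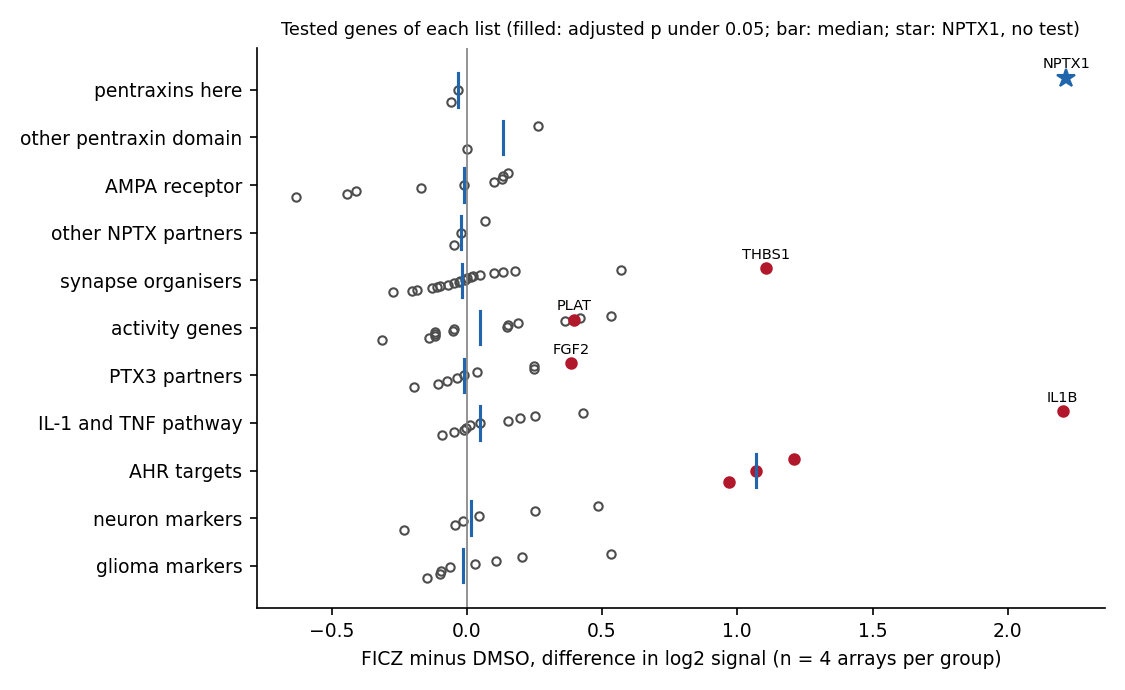
FICZ minus DMSO difference in log2 signal (x axis) of every tested gene of the 11 gene groups shown (rows), with 4 arrays per group. Filled points passed at an adjusted p under 0.05, bars are list medians, and the star is NPTX1 at 2.22, shown with no test. The points of most lists lie around 0, with THBS1, PLAT, FGF2, IL1B and the 3 AHR targets filled.

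With KynA, none of the tested genes of these partner and pathway lists passed by limma, where 0.00925% of all genes did. At an unadjusted p under 0.05 there were 2 of 9 AMPA receptor genes, 0 of 20 synapse organisers, 1 of 14 activity genes, 0 of 9 PTX3 partners and 1 of 11 genes of the interleukin-1 and TNF pathway, where 3.39% of all genes tested were under it. IL1B was at 0.92 and THBS1 at 0.50 against the same DMSO arrays as in the FICZ comparison. Other proteins with a pentraxin domain were sparse, with 4 of 7 in the table and 2 tested. These were the adhesion receptor genes GPR126 (ADGRG6 in newer naming), at 0.26 ± 0.144 with FICZ (limma adjusted p = 0.418), and GPR144, at 0.00 (0.999). Neither had an unadjusted p under 0.05.

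Neuron markers were set beside NPTX1, since neurons are its usual source. Of 14 markers 9 had a row and 6 passed the filter, and 0 of the 6 passed with FICZ by limma, with 1, ELAVL3, at an unadjusted p under 0.05 (0.49; adjusted p = 0.114), where all genes tested had 0.851% and 14.5%. Summed on the linear scale, the 9 markers ranged from 2395 to 2722 with FICZ, from 2305 to 2631 with KynA and from 2445 to 2511 with DMSO, so that all 3 groups overlapped. RBFOX3, DCX and SLC17A7 were below the filter, and TUBB3, STMN2, NEFL, NEFM and ELAVL4 had no row with a symbol of their own. Endothelial cells are another source of PTX3, and 3 of their 6 markers had a row. Their sums were 736 to 929 with FICZ, 711 to 898 with KynA and 676 to 711 with DMSO. Every FICZ and KynA array lay above every DMSO array, the lowest KynA sum (711.1) by little over the highest DMSO sum (710.7). Of single genes tested, 7.86% did not overlap between FICZ and DMSO, and 2.41% did not between KynA and DMSO. Among these markers, VWF differed from DMSO by −0.10 with FICZ and by −0.08 with KynA, and TEK stayed below the filter. In that list KDR rose with FICZ by 0.48 (limma adjusted p = 0.0293; lost without FICZ 2, FICZ 3, DMSO 1, DMSO 2 or DMSO 3, at 0.0525 to 0.0868), and PECAM1, CDH5 and CLDN5 had no row with a symbol of their own. Myeloid sums over 5 of 8 markers were 1124 to 1668 with FICZ, 1241 to 1525 with KynA and 1063 to 1504 with DMSO, with 0 of 4 tested members called (1 at an unadjusted p under 0.05). The part of these markers in the NPTX1 signal was not tested.

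Genes with a pattern most like NPTX1 were ranked by Pearson's r over the 12 arrays among 10806 other tested genes. The highest were ALDH1A3, an aldehyde dehydrogenase of retinoic acid synthesis (0.967), GREM1, a secreted BMP antagonist (0.962), TIPARP, an ADP-ribosyltransferase that restrains AHR (0.962), AHRR, the AHR repressor (0.960), and the surface protein gene SECTM1 (0.959). In all, 19 genes had r over 0.9 and 3 had r under −0.9, led by DEPDC1B (−0.923), SLC2A8 (−0.907) and the mitotic gene HMMR (−0.904). The 12 arrays fall in 3 groups that differ in NPTX1, so r holds mostly the order of the group means and is a description. By Spearman's rho 3 of the 5 most alike genes were the same. The relatives had an r with NPTX1 of 0.07 (NPTX2), −0.13 (NPTXR) and −0.29 (PTX3).

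**Figure D5:**
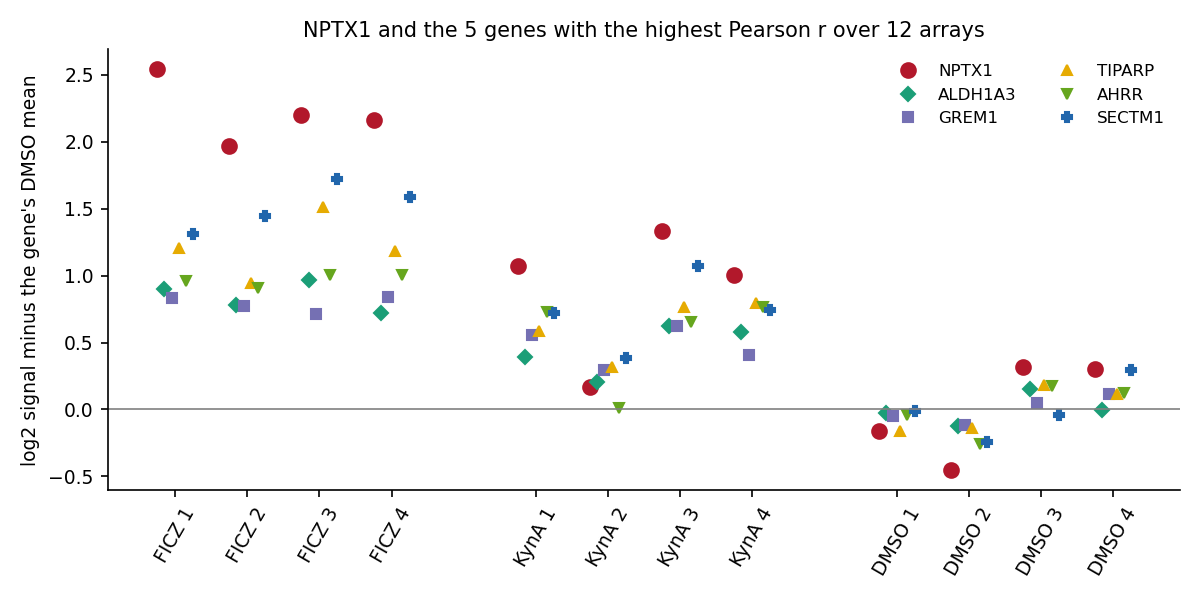
Log2 signal minus each gene's DMSO mean (y axis) on the 12 arrays (x axis) for NPTX1 and the 5 genes with the highest Pearson r. All 6 genes are highest on FICZ arrays. Each is lower on KynA 2 than on the other KynA arrays, with AHRR at 0.01 and NPTX1 at 0.17 there. The 5 genes were picked for likeness over these same arrays, so a shared pattern follows in part from that choice.

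Among the KynA arrays, KynA 2 was the lowest for NPTX1 and for all 5 of these genes. The 5 genes were picked for likeness to NPTX1 over these same arrays, so a shared low KynA 2 follows in part from that choice. On KynA 2, NPTX1 was 0.17 above its DMSO mean, against 1.01 to 1.33 on the other KynA arrays. AHRR was 0.01 above its own, against 0.66 to 0.76. TIPARP was 0.31 above its DMSO mean on KynA 2, and SECTM1 0.38. For some genes replicate 2 stood at one end in the other groups too, and the share of all genes that did so was not counted. Of the other genes in the figure, ALDH1A3 was lowest with FICZ on FICZ 4, GREM1 on FICZ 3 and SECTM1 on FICZ 1. With DMSO, ALDH1A3, GREM1 and SECTM1 were each lowest on DMSO 2. TIPARP was lowest with FICZ on FICZ 2 and lowest with DMSO on DMSO 1. NPTX1 and AHRR had their lowest signal on replicate 2 in all 3 groups, AHRR with 9.25 for FICZ, 8.36 for KynA and 8.09 for DMSO. THBS1 (9.07, 8.34 and 7.87) and the AHR target CYP1B1 (10.26, 9.85 and 9.13) did likewise. IL1B, whose values are given above, had its highest signal on replicate 2 in all 3 groups. What the arrays of a number have in common is not given in the labels, and its part in these values was not tested. After group means were taken out, the genes closest to NPTX1 were GOLGA3 (0.920), KCNQ5 (0.918) and EPHA2 (0.908), with FICZ minus DMSO differences of −0.08, −0.39 and −0.20.

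For the relatives the most alike genes were DPYSL2 (0.886), SETD3 (0.881) and BIN1 (0.877) for NPTX2. They were SLC34A3 (0.867), ADI1 (0.840) and RHCE (0.836) for NPTXR. For PTX3 they were NTNG1, a netrin-like axon guidance gene (0.925), DCTN3 (0.909) and TIFA (0.884). None of these 9 genes passed the test with FICZ by limma, their adjusted p-values lying between 0.593 and 0.952, and none of the 9 was shared with NPTX1 or between relatives. These correlations rest on small differences between 12 arrays.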

How the data were processed

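Total RNA was labelled as biotinylated single-stranded cDNA and hybridised to Affymetrix whole-transcript arrays, 1 per sample, per the labels' protocols. The deposited values are log2 signals, for which the submitters' processing notes name RMA and oligo; versions, and why dim rows are missing, are not given in the sources at hand. Of 15759 rows, 13577 had 1 symbol in the platform annotation, for 13530 genes. The row with the highest mean was kept. Testing needed a signal over the array's own 25th percentile on 4 or more arrays (10807 genes). limma's group-means fit over 12 arrays used 2-sided moderated tests with Benjamini-Hochberg adjustment, and genes passed under 0.05; NPTX2 came from the fit without this filter. The fit was tested on simulated data. Precision is limited by the number of arrays, with a median SE of 0.106.

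The genes, lists and tests were chosen with earlier results of these data known. Named genes were the 4 pentraxins, the most alike genes, list members that passed in any comparison and otherwise the 2 with the smallest p, and defining markers; other genes named were chosen after their values were seen. Settings varied were the filter (none, or the 50th percentile), the scale (median centring, cyclic loess), the mean over a gene's rows, a trended robust variance, array weights, the 8 arrays of a comparison alone, a block by replicate number, and each array left out. Protein comparison and NPTX1 promoter letters were not analysed here. Tools were R 4.3.3, limma 3.58.1, Python 3.11.15, pandas 2.3.3, scipy 1.17.1 and matplotlib 3.10.9.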

Additional observations from a re-analysis of the deposited data

Results flagged for a closer look

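In 63 named genes and 3 groups each, 8 of 189 groups held an array far from the other 3, by Dixon's test; chance alone gives about 1 in 20. On array KynA 2, AHRR was the lowest at 8.36 (other KynA arrays 9.0 to 9.11), GOLGA3 the lowest at 8.40 (8.74 to 8.80), RHCE the lowest at 7.76 (8.43 to 8.51) and ADAM17 the highest at 8.82 (8.70 to 8.71). On KynA 4, TIFA was the lowest at 7.46 (7.77 to 7.79). AHRR, GOLGA3, RHCE and TIFA were among the genes picked for likeness to NPTX1, NPTXR or PTX3 over these same arrays. With KynA, NPTX1 and NPTXR were lowest on KynA 2, and PTX3 on KynA 4. The flags of AHRR, GOLGA3, RHCE and TIFA thus follow in part from that choice, which the chance share leaves out. On FICZ 3, KDR was the highest at 8.87 (8.55 to 8.61). On DMSO 1, AQP4 was the lowest at 7.30 (7.60 to 7.66), and on DMSO 3, TYROBP was the highest at 7.11 (6.93 to 6.96). No group of NPTX1, NPTX2, NPTXR or PTX3 was among them.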

How the results depend on the processing

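For the 4 pentraxin genes, the NPTX1 difference between FICZ and KynA was the 1 comparison that changed sides of the threshold. With the replicate number as a block, entered as a fixed term and added after the values were seen, it was 1.32 with a limma adjusted p of 0.0135, and the counts of genes called were 6 for KynA against DMSO and 6 for FICZ against KynA. As the planned random block, the limma adjusted p of this NPTX1 difference was 0.0774. Both p-values use the FICZ arrays on which NPTX1 was picked, so neither is independent of that choice. The pairing by number is not stated in the labels. The deviations of same-numbered arrays correlated at −0.13 to 0.21, with 6 of 12 pairs over 0.1. In 6 of 12 the array was closest to its own number among the 4 of the other group. Not every pair was over 0.1, so the number was not taken as a pairing. Some genes followed it, NPTX1 among them, whose lowest array was replicate 2 in each group. For FICZ against DMSO the fixed block lowered the SE of NPTX1 to 0.153, against 0.227 without it. It lowered the SE of IL1B to 0.0919, against 0.256, that of THBS1 to 0.0893, against 0.236, and that of CYP1B1 to 0.0824, against 0.165. The SE of NPTXR rose to 0.106, against 0.0983. The main SEs of NPTX1 leave the number out. The NPTX1 difference between FICZ and DMSO ran from 2.06 to 2.32 over 22 alternatives, KynA against DMSO from 0.74 to 1.14 and FICZ against KynA from 1.08 to 1.47. The differences of NPTX2, NPTXR and PTX3 stayed between −0.26 and 0.15 and passed under none; NPTX2 and PTX3 had too dim a signal for the filter at the 50th percentile. Genes called for FICZ against DMSO, 92 in the main setting, were 140 with a trended, robust variance, 43 with only the 8 arrays compared and 42 to 103 when 1 array was left out. For KynA against DMSO, 1 in the main setting, they were 2 with a trended, robust variance and 1 to 2 when 1 array was left out; for FICZ against KynA, also 1, they were 2 without the filter and 1 when any 1 array was left out. Among list genes, THBS1 passed in 9, PLAT in 11, FGF2 in 15 and KDR in 16 of the 22 alternatives, and IL1B, TIPARP, CYP1B1 and AHRR in all 22. The causes were not tested. Dim signal limits NPTX2 and the DMSO level of NPTX1.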
